A study of Mus musculus with 14 samples.

Results

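The Hox genes were followed through the transcriptome of granulosa cells (GCs), the somatic cells that surround and nourish the oocyte, from obese mice and their lean controls. The members were all protein-coding genes in the table whose symbol is Hox followed by the cluster letter a, b, c or d and a number, with no other letters. There were 39 such genes among the 55414 identifiers of the table. HoxA held 11 of them on chromosome 6, HoxB 10 on chromosome 11, HoxC 9 on chromosome 15 and HoxD 9 on chromosome 2. Poly(A) RNA was sequenced from GCs of antral follicles, released by puncture of the ovary, with about 50 cells pooled in a library. The db/db mice lack the long leptin receptor isoform (strain B6.BKS(D)-Leprdb/J) and the ob/ob mice lack leptin (strain B6.Cg-Lepob/J). Lean control mice, CT db and CT ob, came with each model, and the labels give them as wild type while their column names read het. Animals were on chow and were 12 weeks old. The mutations are present in all cells of the body, so GCs of a mutant came from an obese animal. Both models were set beside their own controls, and there were 4 libraries each of db/db and CT db and 3 each of ob/ob and CT ob. Libraries are named by group and a letter, since the columns hold no replicate number, and the labels do not say whether each came from a separate animal.

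Hox genes encode homeodomain transcription factors that give cells their position along the body axis during development. They lie in 4 clusters, and within a cluster the order of the genes on the chromosome follows the order of their domains from head to tail, so that low numbers are anterior and high numbers posterior. Genes with the same number in different clusters are paralogues. In the female tract, posterior HoxA members pattern the oviduct, uterus, cervix and vagina, and many adult cells keep a Hox code of the place where they arose.

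Depth lay between 2204686 and 8367593 counts on genes per library. It was lower in db/db (at most 3059777) than in ob/ob (at least 5306632). A total of 3 counts, taken as the floor of detection, corresponded to 0.369 to 1.30 CPM, the unit of counts scaled to a common library total, here with TMM factors. The targeted genes gave no check of the labels. Lep, which encodes leptin, was at 3 counts or fewer in every ob/ob library and at 2 or fewer in every CT ob library. Lepr, the receptor gene, reached at most 3 counts across db/db and 6 across CT db, and its counts also hold receptor isoforms that the db allele leaves in place. GC markers were high in each group, with a summed level of 11511 to 29655 CPM over 11 genes, and lowest in CT ob. The libraries db/db-a and CT ob-b stood apart in markers of some other cells. Summed theca markers reached 333.4 CPM in db/db-a against 43.3 to 99.1 CPM elsewhere, and surface epithelium markers 37.1 CPM against at most 4.83 CPM. In db/db-a Hhip of the theca list and Msln and Lgals7 of the surface epithelium list were at 0. Summed stroma markers reached 153.2 CPM in CT ob-b against at most 77.2 CPM in the other libraries. Summed luteal markers reached 340.1 CPM in CT ob-b against at most 132.7 CPM elsewhere. Results that rest on db/db-a or CT ob-b are also given without them. Summed oocyte markers (10 genes) ranged more widely, from 3.94 CPM in CT db-a to 758.4 CPM in ob/ob-a and 1128 CPM in CT ob-a. The part of oocyte RNA in the Hox values was not tested. In pooled cells, fewer cells of a type and less RNA per cell cannot be told apart.

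The GC libraries held a small part of the Hox complement, mostly from Hoxd8 to Hoxd11 and from Hoxc4 to Hoxc10. Which cells gave these counts was not tested. Of the 39 members, 15 had more than 3 counts in at least 1 library and 24 did not in any. The members summed to 3723 counts over the 14 libraries, and HoxD took 63.1% of these, HoxC 28.3%, HoxB 8.22% and HoxA 0.403%. By library the HoxD share ran from 39.2% to 86.1%, and HoxC was above HoxD in db/db-a (48.6% against 39.2%) and CT ob-a (47.1% against 45.3%). By group, at least 1 library was above 3 counts for 15 members among the CT ob libraries, 11 among ob/ob, and 13 among both db/db and CT db. Hoxd8 was the single member above 3 counts in every one of the 14 libraries. That number became 3 without db/db-b and 2 without ob/ob-b. Within groups, 3 members were above 3 counts in every db/db library, 5 in every CT db library, 5 in every ob/ob library and 10 in every CT ob library. These numbers depend on depth and on the number of libraries in a group. With all libraries downsampled to the smallest library they were 3, 4, 1 and 4 in the same order. Spearman rho over the 14 libraries was 0.75 between Hoxc4 and summed immune markers, and -0.59 between Hoxc6 and the GC marker sum. These were the highest and lowest rho over all pairs of a member described one by one and a marker list. Hoxc4 also had a rho of 0.71 with summed stroma markers and 0.50 with theca markers. Immune markers were low, at 1.72 to 23.4 CPM summed over 6 genes, with Adgre1 at 0 in ob/ob. For Hoxd8 the highest rho of the marker lists was 0.25, with the GC marker sum.

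**Figure D1:**
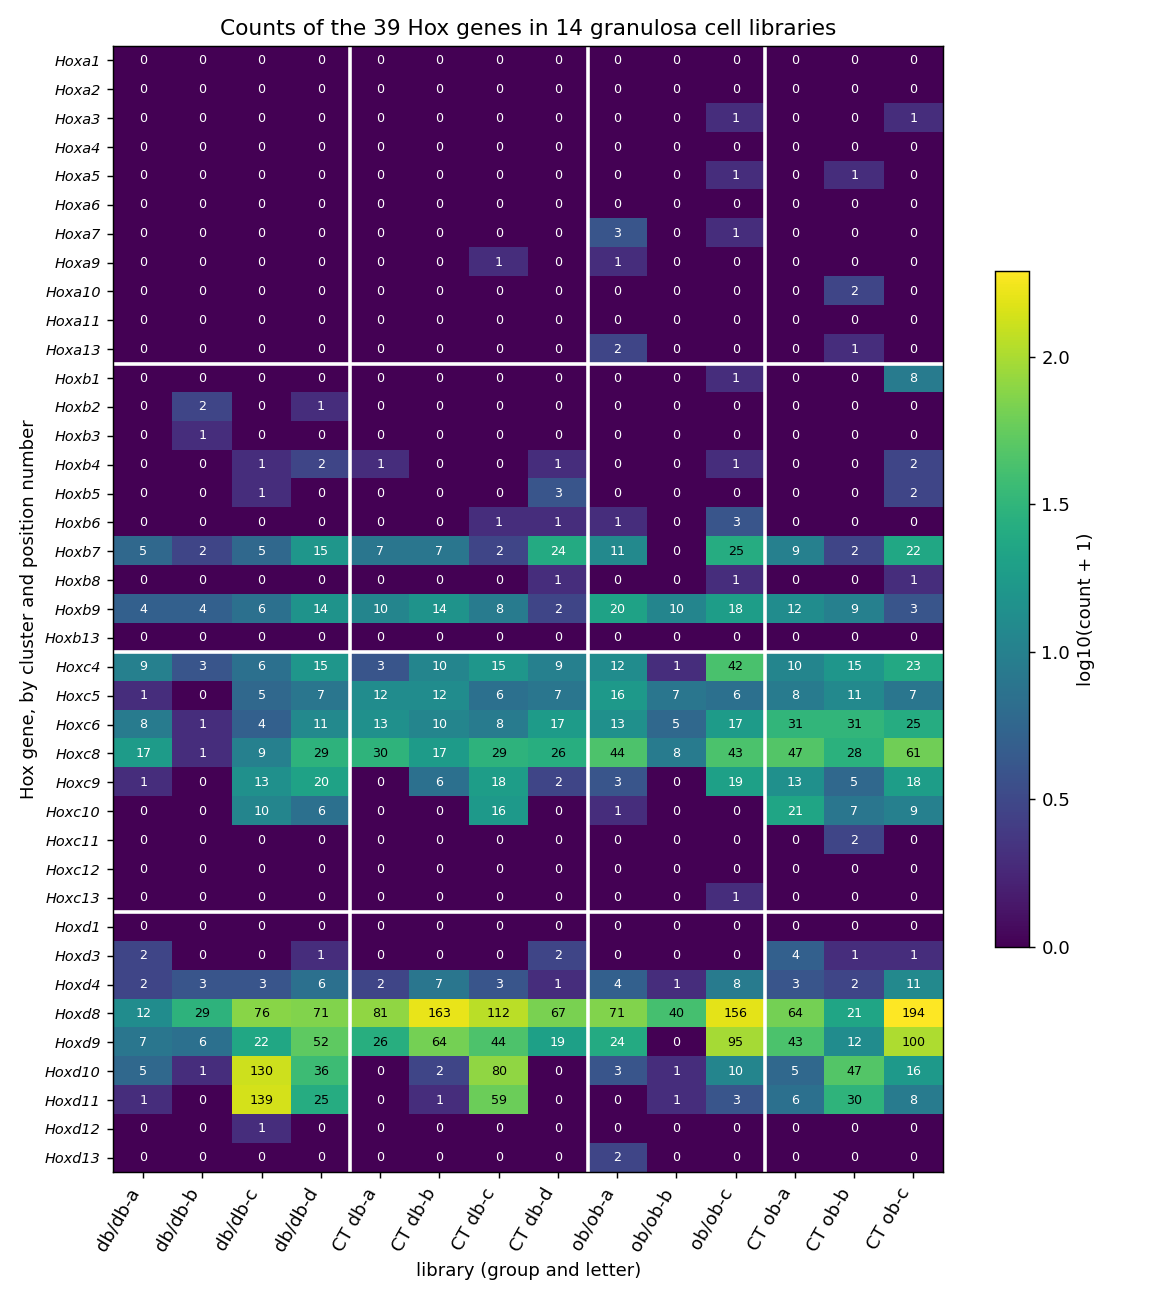
Counts of all 39 Hox genes (rows, by cluster and position number) in each of the 14 libraries (columns), with the count printed in each cell and the colour on a log10(count + 1) scale. HoxA is at 0 to 3 counts throughout, and Hoxd10 and Hoxd11 are highest in db/db-c, db/db-d, CT db-c and CT ob-b.

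HoxA was at or below the floor in all groups. None of its 11 members exceeded 3 counts in any library, 5 had no count at all, and the whole cluster gave 15 counts. In db/db all 11 were at 0 in all 4 libraries, where 3 counts correspond to 0.937 to 1.30 CPM. Members of the female tract code were among them: Hoxa9, of the oviduct, reached 1 count, Hoxa10 and Hoxa11, of the uterus, 2 and 0 counts, and Hoxa13, of the cervix and vagina, 2 counts. Markers of oviduct epithelium were also low outside db/db-a, at 0 to 5.44 CPM summed over 4 genes. The sum was 22.6 CPM in db/db-a, where 1 of the 4 was above 3 counts and Foxj1 and Wfdc2 were at 0. HoxA was at 0 in that library. Expression of HoxA below the floor was not detectable at this depth.

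HoxB contributed Hoxb7 and Hoxb9, which flank the undetected Hoxb8. Hoxb7, a gene active in the embryonic kidney duct, had 5, 2, 5 and 15 counts across db/db against 7, 7, 2 and 24 across CT db, and 11, 0 and 25 across ob/ob against 9, 2 and 22 across CT ob. Hoxb9, which takes part in patterning of the ribs, had 4, 4, 6 and 14 counts across db/db against 10, 14, 8 and 2 across CT db, and 20, 10 and 18 across ob/ob against 12, 9 and 3 across CT ob. Groups overlapped for both genes. Hoxb9 had the lowest coefficient of variation of CPM among the 13 members described one by one here, 0.438 over the 14 libraries. Of the other HoxB members, Hoxb1, a gene of the hindbrain, had 8 counts in CT ob-c and at most 1 elsewhere. Hoxb2 to Hoxb6 and Hoxb8 stayed between 0 and 3 counts, and Hoxb13 was at 0.

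HoxC was read from its anterior end, Hoxc4, to Hoxc10, and its posterior end, Hoxc11 to Hoxc13, gave 0 to 2 counts. Hoxc8, a gene of thoracic and forelimb motor neuron identity, was the most abundant, with 17, 1, 9 and 29 counts across db/db against 30, 17, 29 and 26 across CT db, and 44, 8 and 43 across ob/ob against 47, 28 and 61 across CT ob. Hoxc6, also of the thoracic region, had 8, 1, 4 and 11 counts across db/db against 13, 10, 8 and 17 across CT db, and 13, 5 and 17 across ob/ob against 31, 31 and 25 across CT ob. All CT ob libraries were above all others for Hoxc6. Hoxc4 and Hoxc5, of the neck region, averaged 3.06 and 1.81 CPM over all libraries, beside 3.49 CPM for Hoxc6. The mean of Hoxc4 was above that of Hoxc6 in db/db (3.10 against 2.25 CPM) and ob/ob (2.46 against 1.68 CPM). Hoxc4 had 9, 3, 6 and 15 counts across db/db against 3, 10, 15 and 9 across CT db, and 12, 1 and 42 across ob/ob against 10, 15 and 23 across CT ob. Hoxc5 had 1, 0, 5 and 7 counts across db/db against 12, 12, 6 and 7 across CT db, and 16, 7 and 6 across ob/ob against 8, 11 and 7 across CT ob. The posterior pair was less even. Hoxc9 had 1, 0, 13 and 20 counts across db/db against 0, 6, 18 and 2 across CT db, and 3, 0 and 19 across ob/ob against 13, 5 and 18 across CT ob. Hoxc10, a gene of the lumbar region and hindlimb, had 0, 0, 10 and 6 counts across db/db against 0, 0, 16 and 0 across CT db, and 1, 0 and 0 across ob/ob against 21, 7 and 9 across CT ob. Hoxc10 was thus above 3 counts in all CT ob libraries, in 2 of the 4 db/db libraries and in 1 of the 4 CT db libraries, and its ob/ob libraries lay below all CT ob libraries. Hoxc10 and Hoxc5 share 166 exon bases on the same strand, so some of their reads cannot be told apart.

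HoxD held the most abundant members, with a block from Hoxd8 to Hoxd11. Hoxd8 lies at chr2:74534959-74538297 on the plus strand (GRCm39, as are all gene positions here), and alone gave 31.1% of the Hox counts. It had 12, 29, 76 and 71 counts across db/db against 81, 163, 112 and 67 across CT db, and 71, 40 and 156 across ob/ob against 64, 21 and 194 across CT ob. Hoxd9 (chr2:74528008-74530552) had 7, 6, 22 and 52 counts across db/db against 26, 64, 44 and 19 across CT db, and 24, 0 and 95 across ob/ob against 43, 12 and 100 across CT ob. CT ob-c was the highest library for both, and the groups overlapped in each comparison. Over the 14 libraries, which share depth and scaling, the CPM of Hoxd8 and Hoxd9 had a Spearman rho of 0.83. At the anterior end Hoxd4 was at 1 to 11 counts in all libraries, Hoxd3 at 0 to 4 and Hoxd1 at 0. Exons of Hoxd4 and Hoxd3 overlap each other and the antisense RNA Hoxd3os1, and 52.0% of the exon bases of Hoxd4 are shared with another gene. Hoxd12 and Hoxd13, of the digits and genital tubercle, reached 1 and 2 counts.

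Hoxd10 and Hoxd11 differed from Hoxd8 and Hoxd9 in how they were spread over libraries. Hoxd10 (chr2:74522230-74525449), a gene of the lumbar region and hindlimb, had 5, 1, 130 and 36 counts across db/db against 0, 2, 80 and 0 across CT db, and 3, 1 and 10 across ob/ob against 5, 47 and 16 across CT ob. Hoxd11 (chr2:74509901-74517360), a gene of the forearm and kidney, had 1, 0, 139 and 25 counts across db/db against 0, 1, 59 and 0 across CT db, and 0, 1 and 3 across ob/ob against 6, 30 and 8 across CT ob. Each had its highest counts in the same 4 libraries, db/db-c, db/db-d, CT db-c and CT ob-b. The other 2 CT ob libraries were also above the floor of 3 counts, at 5 and 16 counts of Hoxd10 and 6 and 8 of Hoxd11, and the other CT db libraries were at 0 to 2 counts. Single libraries made up most of a group's counts: db/db-c gave 75.6% of the Hoxd10 counts and 84.2% of the Hoxd11 counts of db/db, and CT db-c gave 97.6% and 98.3% of those of CT db. The ratio of the highest CPM to the median over the 14 libraries was 51.4 for Hoxd10 and 151.3 for Hoxd11, against 3.52 for Hoxd8 and 4.37 for Hoxd9. Spearman rho over the 14 libraries was 0.92 between Hoxd10 and Hoxd11 and 0.77 between Hoxd10 and Hoxc10 on another chromosome. It was 0.38 between Hoxd10 and its neighbour Hoxd9, and 0.15 between Hoxd10 and Hoxd8. Within the db model the rho of Hoxd10 with Hoxd11 was 0.93 and within the ob model 0.89. Of the libraries high in Hoxd10, db/db-c had 13.0 CPM of summed stroma markers, the lowest value of the db model, and CT ob-b had 153.2 CPM, the highest of all. Over the 14 libraries, summed stroma markers had a Spearman rho of 0.49 with Hoxd10 and 0.38 with Hoxd11. Summed endothelial markers (5 genes, 3.10 to 31.4 CPM) were highest in CT ob-b. They had the highest rho of the marker lists, at 0.56 with Hoxd10, 0.52 with Hoxd11 and 0.50 with Hoxc10. Of the other libraries high in Hoxd10, db/db-c had 9.53 CPM of endothelial markers, CT db-c 8.24 CPM and db/db-d 3.12 CPM. Kdr and Emcn were at 0 in db/db-c, Emcn in CT db-c and Tek in db/db-d. CT ob-a had 23.4 CPM of endothelial markers and 0.958 CPM of Hoxd10. Whether cell composition had a part in this spread was not tested.

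**Figure D2:**
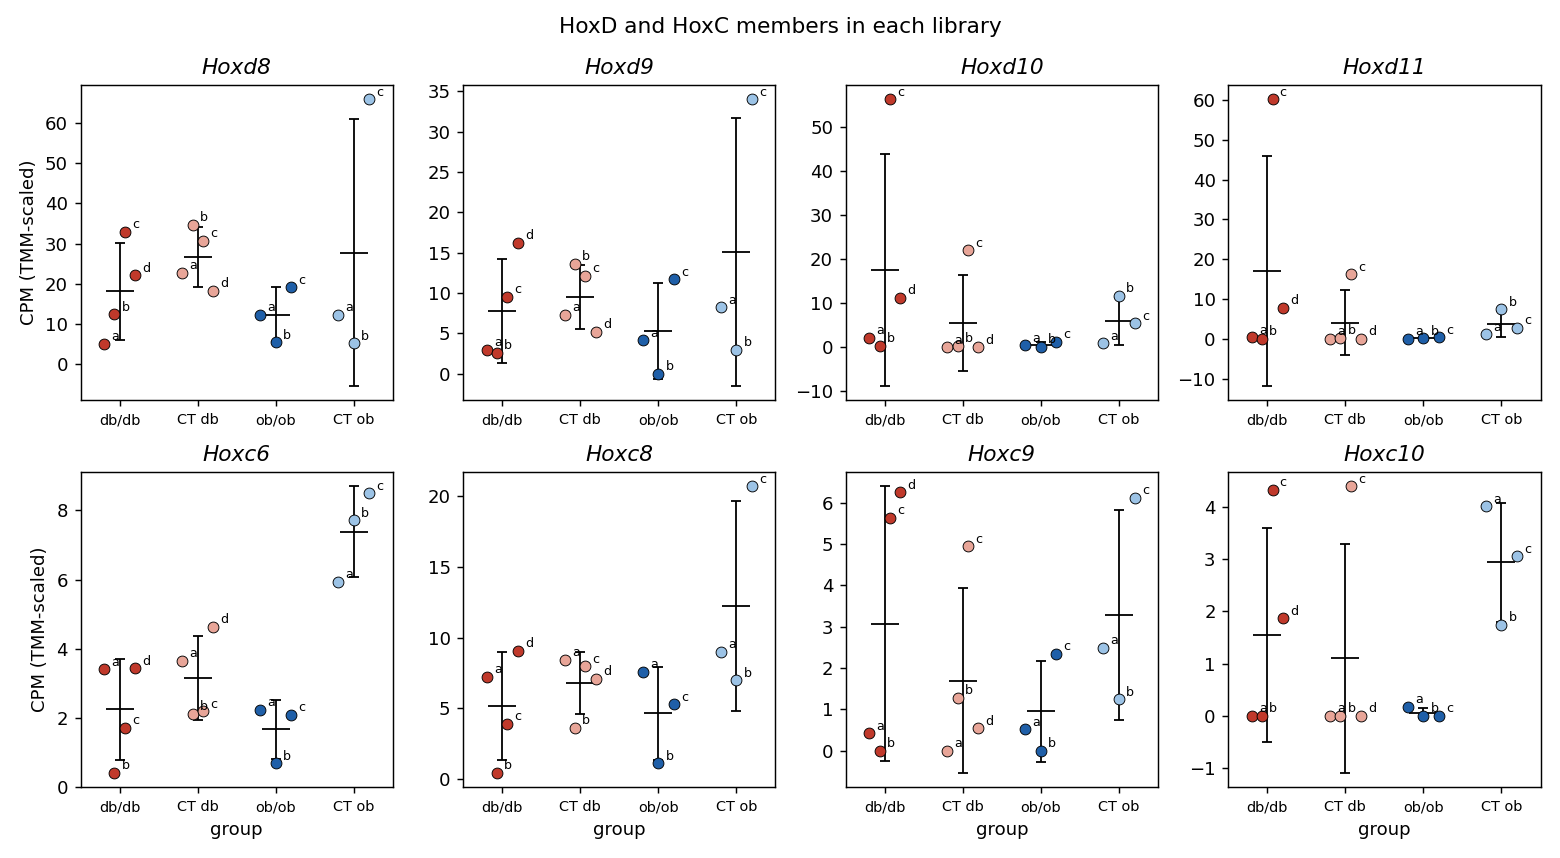
CPM of 8 HoxD and HoxC members in each library, with the letter of the library beside each point, the group mean as a horizontal mark and the SD as a bar. Hoxd10 and Hoxd11 are highest in the libraries db/db-c, db/db-d, CT db-c and CT ob-b, while Hoxc6 in CT ob (5.94 to 8.50 CPM) is above all other libraries.

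Hoxd8 was above 3 counts in all libraries, and Hoxd10 and Hoxd11 were not. The bases before the start sites of these HoxD members are shown for comparison. They are the 250 bases upstream of the starts annotated by RefSeq on build GRCm38.p6, plus strand, a different build from the gene positions above. A promoter entry was found for 22 of the 39 members. Capitals mark matches on either strand to a CCAAT box, to a GC box searched as GGGCGG, to a TATA box searched as TATAAA, or to TTTATG, a core recognised by Cdx and posterior Hox factors. No marked matches overlapped.
Hoxd8, chr2:74704365-74704614: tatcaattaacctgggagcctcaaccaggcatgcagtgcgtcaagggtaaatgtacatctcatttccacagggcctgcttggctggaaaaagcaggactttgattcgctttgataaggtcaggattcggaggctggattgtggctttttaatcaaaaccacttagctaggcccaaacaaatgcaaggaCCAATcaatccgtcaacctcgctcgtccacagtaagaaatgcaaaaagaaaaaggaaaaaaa
Hoxd10, chr2:74691641-74691890: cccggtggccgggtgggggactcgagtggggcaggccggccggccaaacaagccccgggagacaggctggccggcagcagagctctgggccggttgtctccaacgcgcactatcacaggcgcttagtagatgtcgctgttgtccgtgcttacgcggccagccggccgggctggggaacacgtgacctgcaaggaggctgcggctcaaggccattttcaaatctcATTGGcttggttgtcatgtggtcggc
Hoxd11, first start, chr2:74679308-74679557: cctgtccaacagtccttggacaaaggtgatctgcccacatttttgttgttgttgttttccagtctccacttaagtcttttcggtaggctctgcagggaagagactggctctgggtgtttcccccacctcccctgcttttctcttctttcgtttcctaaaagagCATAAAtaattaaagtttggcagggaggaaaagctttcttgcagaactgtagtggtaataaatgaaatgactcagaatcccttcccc
Hoxd11, other start, chr2:74682073-74682322: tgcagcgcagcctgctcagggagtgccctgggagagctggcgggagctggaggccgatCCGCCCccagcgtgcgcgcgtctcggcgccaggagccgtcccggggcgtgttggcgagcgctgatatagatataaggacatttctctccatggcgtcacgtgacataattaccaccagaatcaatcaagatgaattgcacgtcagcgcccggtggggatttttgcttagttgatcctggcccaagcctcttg

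The Hoxd8 and Hoxd10 windows each held a CCAAT match, 57 and 21 bases before the start, on opposite strands, and 33.8% of 32851 RefSeq windows of the same length held one. The windows of Hoxd11 held a TTTATG match at the first start (10.8% of windows) and a GGGCGG match at the other (32.7% of windows). TATAAA, held by 12.4% of windows, was in none of the 4. GC content was 44.4% for Hoxd8, 65.6% for Hoxd10, and 44.8% and 60.4% for the Hoxd11 starts. A match describes the letters only, and no motif was shared by Hoxd10 and Hoxd11.

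Per length of exon, the level was highest for Hoxd8, and few members reached the upper part of the transcriptome. The mean over the 14 libraries was 7.27 CPM per kb for Hoxd8, which ranked 4421 of 21627 protein-coding genes. Hoxd10 followed at 4.33 CPM per kb and Hoxd9 at 4.24, and the libraries of these overlapped widely. The mean of Hoxd10 rested on db/db-c and was 2.33 without it, with a median of 0.59 over the 14 libraries, whereas Hoxd9 without its highest library was at 3.38. Hoxc8 had 2.33 CPM per kb, Hoxb7 1.62, Hoxc6 1.38, Hoxc4 1.19 and Hoxd11 1.17, which became 0.476 without db/db-c. Neighbours in this order lay within the spread of their libraries. The summed level of all members averaged 84.5 ± 75.7 CPM across db/db (SD, n = 4), 69.7 ± 28.2 CPM across CT db (SD, n = 4), 35.3 ± 23.1 CPM across ob/ob (SD, n = 3) and 94.5 ± 68.9 CPM across CT ob (SD, n = 3). The spread within a group was wide, from 10.2 CPM in ob/ob-b to 55.7 CPM in ob/ob-c and from 22.8 CPM in db/db-b to 186.6 CPM in db/db-c. This order did not follow depth. The library ob/ob-b had 6907152 counts on genes and 74 of them on Hox members, while db/db-c had 2228526 and 431.

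**Figure D3:**
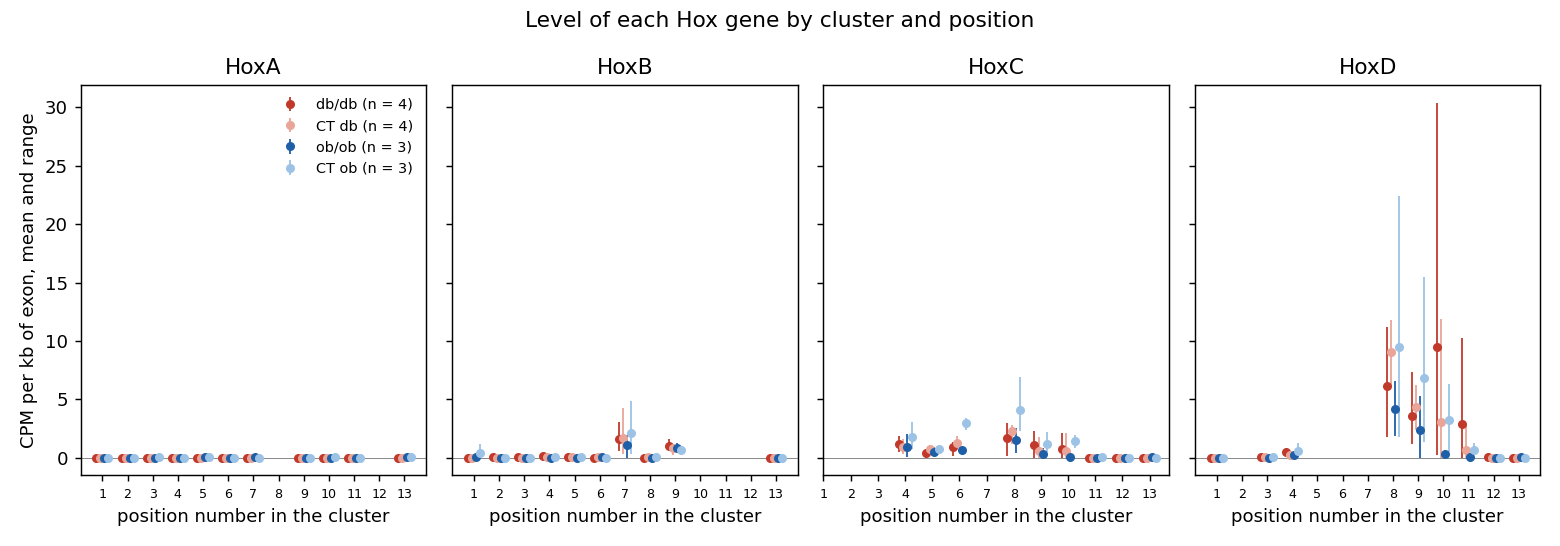
Level of each Hox gene in CPM per kb of exon (vertical axis) by position number (horizontal axis) in each cluster, with the group mean as a point and the lowest and highest library as a bar. The 13 members described one by one lie at positions 7 and 9 of HoxB, 4 to 6 and 8 to 10 of HoxC, and 4 and 8 to 11 of HoxD. Hoxd8 has the highest mean (7.27 CPM per kb over all libraries), and the bars of the groups overlap at nearly all positions.

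In the db model, no Hox member was called between db/db and CT db. Of the 39 members, 4 passed the filter on low counts (Hoxc6, Hoxc8, Hoxd8 and Hoxd9), and 0 were called by edgeR's quasi-likelihood test at an adjusted p of 0.05 or less, beside 0.00884% of 11317 genes. At an unadjusted p under 0.05 there were also 0, beside 7.59% of genes, and DESeq2 called 0, beside 0.389%. Hoxd8 averaged 18.2 ± 12.1 CPM across db/db (SD, n = 4) against 26.6 ± 7.46 CPM across CT db (SD, n = 4), with a log2 fold change of -0.56 (SE 0.415, adjusted p = 0.768, edgeR). The log2 fold changes of Hoxc6, Hoxc8 and Hoxd9 were -0.44, -0.35 and -0.26. Leaving out db/db-b turned those of Hoxc8 and Hoxd9 to 0.01 and 0.02. Hoxd10 averaged 17.5 ± 26.3 CPM across db/db (SD, n = 4) against 5.60 ± 10.9 CPM across CT db (SD, n = 4), and the exact permutation p over libraries was 0.457, two-sided. For Hoxd11 that p was 0.543. None of the 13 members had groups that did not overlap in CPM. That share was 4.13% among the 11317 genes that passed the filter, as 4 of the members did.

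In the ob model, 7 of the 8 members that could be tested had a lower fitted level in ob/ob, and none was called. Of the 39 members these 8 passed the filter, and edgeR called 0, beside 0% of 12425 genes. At an unadjusted p under 0.05 there was 1, Hoxc6, beside 8.16% of genes. DESeq2 called 0 members, beside 0.692% of genes, with 2 at an unadjusted p under 0.05. It gave no adjusted p for Hoxb7, Hoxb9 and Hoxc9. Hoxc6 averaged 1.68 ± 0.855 CPM across ob/ob (SD, n = 3) against 7.39 ± 1.31 CPM across CT ob (SD, n = 3), and its log2 fold change was -2.13 (SE 0.533, adjusted p = 0.539, edgeR). The range of that fold change when each library was left out was -2.38 to -1.76, and its adjusted p by DESeq2 was 0.0606. Hoxc8 had a log2 fold change of -1.39 (SE 0.694) and Hoxc9 of -1.69 (SE 1.08). Without CT ob-c these became -0.78 and -0.93, and without ob/ob-c that of Hoxc9 became -3.61. Those of Hoxd8 and Hoxd9 were -1.16 and -1.49, and without CT ob-c, where Hoxd8 was at 65.9 CPM, they became 0.49 and -0.09. Without ob/ob-c that of Hoxd9 became -2.88. Hoxb7 turned from -0.89 to 0.54 without CT ob-c, and Hoxb9, the one higher in ob/ob at 0.29, turned to -0.07 without ob/ob-a. The median over the 8 was -1.27, beside -0.04 over all genes tested, and is given as a description because the filter removed 31 members. Marker sums of endothelial cells and of GCs did not overlap between the groups of this model. Endothelial markers (4 of 5 above 3 counts in a library of ob/ob and 5 of 5 in CT ob) were at 7.02 to 8.03 CPM in ob/ob and 8.84 to 31.4 CPM in CT ob, with Emcn at 0 in ob/ob-b, CT ob-a and CT ob-c. The GC marker sum was 18689 to 26917 CPM in ob/ob and 11511 to 16567 CPM in CT ob. Their part in the Hox values was not tested.

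Groups did not overlap in the ob model for 3 of the 13 members, Hoxc6, Hoxc10 and Hoxd11, all lower in ob/ob. Of the 12425 genes that passed the filter, 15.7% did not overlap in either direction and 7.50% were lower in ob/ob without overlap. Among the 8 members that passed, Hoxc6 alone did not overlap, and these shares do not cover Hoxc10 and Hoxd11. Hoxc6, Hoxc10 and Hoxd11 each had an exact permutation p of 0.1, two-sided, the smallest that 3 against 3 libraries can give. Hoxc10 had 1 count in all ob/ob libraries together and 37 in CT ob. Hoxd11 had 4 and 44, and 30 of the latter came from CT ob-b, which stood apart in stroma markers. With CT ob-b left out, Hoxd11 was still at 1.15 and 2.72 CPM in CT ob against 0 to 0.369 CPM in ob/ob. Neither Hoxc10 nor Hoxd11 passed the filter in this model.

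**Figure D4:**
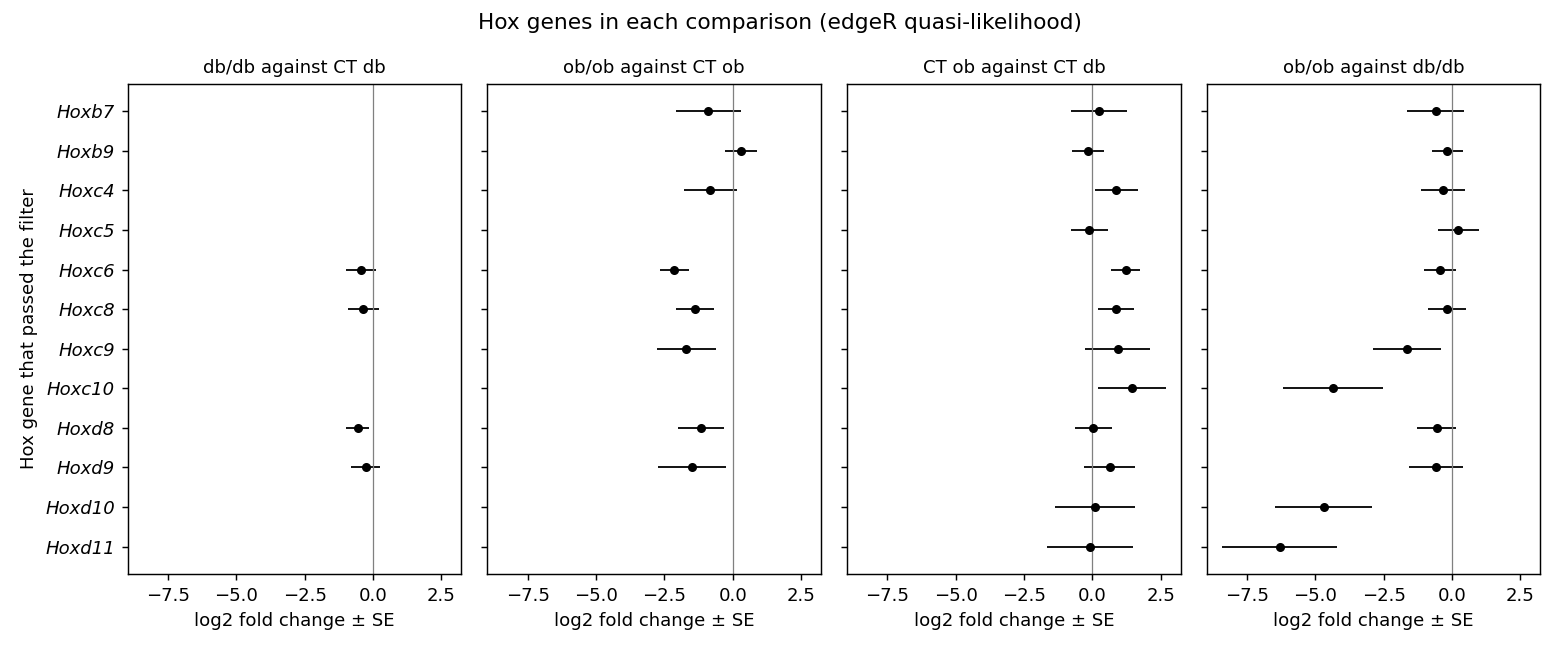
Log2 fold change (horizontal axis) with its SE as a bar for the Hox genes that passed the filter in each of 4 comparisons, by edgeR's quasi-likelihood fit. No gene was called, and the largest values are those of Hoxc10, Hoxd10 and Hoxd11 in ob/ob against db/db, with the widest bars.

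Between the lean controls, groups did not overlap for 1 of the 13 members, Hoxc6, beside 21.2% of genes that passed the filter. Hoxc6 averaged 7.39 ± 1.31 CPM across CT ob (SD, n = 3) against 3.16 ± 1.21 CPM across CT db (SD, n = 4). Its exact permutation p was 0.0286, two-sided, the smallest possible. Such tests were made for 13 members in 4 comparisons, and no other was under 0.05, which the 13 of the ob model could not reach at 3 against 3 libraries. In the fit of all 14 libraries the log2 fold change of Hoxc6 was 1.22 (SE 0.525, adjusted p = 0.153, edgeR). Here 12 members passed the filter and edgeR called 0 of them, beside 6.63% of 12586 genes. At an unadjusted p under 0.05 there was 1, beside 26.9% of genes, and DESeq2 called 0, beside 12.4%. The GC marker sum was also lower in CT ob (11511 to 16567 CPM) than in CT db (18894 to 29655 CPM). Summed endothelial markers were higher in CT ob (8.84 to 31.4 CPM) than in CT db (3.10 to 8.24 CPM). Summed surface epithelium markers were also higher in CT ob (2.49 to 3.74 CPM against 0.563 to 2.20 CPM), but most of them were at or below the floor. Of the 6 markers, 2 were above 3 counts in a library of CT ob and 1 in a library of CT db. The part of these sums in the Hoxc6 difference was not tested. The log2 fold changes of the other 11 ran from -0.17 for Hoxb9 to 1.45 for Hoxc10. That of Hoxd11, -0.10, became 5.07 without CT db-c.

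Between the mutants, the posterior members had the most negative log2 fold changes of ob/ob against db/db, with wide errors. Hoxd11 had a log2 fold change of -6.31 (SE 2.11, adjusted p = 0.391, edgeR), Hoxd10 of -4.69 (SE 1.78, adjusted p = 0.460) and Hoxc10 of -4.35 (SE 1.82, adjusted p = 0.525). Without db/db-c the first became -3.80 and the second -2.84, and Hoxc10 no longer passed the filter. These 3 were the members at an unadjusted p under 0.05, beside 8.18% of 12586 genes, and edgeR called 0 of 12, beside 0.0159% of genes. DESeq2 called 0, beside 0.572%. The libraries of the groups overlapped for all 13 members described one by one. Of the 12586 genes that passed the filter, as 12 of the members did, 9.91% did not overlap. For these 3, db/db-b had 1 count of Hoxd10 and 0 of Hoxd11 and Hoxc10. Exact permutation p-values over libraries were 0.229, 0.571 and 0.429 for Hoxd10, Hoxd11 and Hoxc10. The same 3 genes had the largest differences between the 2 mutant effects (interaction), with log2 differences of -6.21 (SE 2.60) for Hoxd11, -5.79 (SE 2.20) for Hoxc10 and -4.80 (SE 2.24) for Hoxd10. Leaving out db/db-c moved those of Hoxd11 and Hoxd10 to -3.69 and -2.95, and leaving out CT db-c moved them to -11.37 and -9.62. With all libraries the adjusted p-values were 0.568, 0.548 and 0.608 in that order by edgeR, and 0 of 12 members were called, beside 0% of genes. DESeq2 called 0.572% of genes there but gave no adjusted p for any of the 12 members, so it could call none of them. By edgeR the members at an unadjusted p under 0.05 were Hoxc10, Hoxd10 and Hoxd11, beside 8.11% of genes. By DESeq2 they were Hoxc6, Hoxc10 and Hoxd11, and Hoxd10 was at an unadjusted p of 0.0674.

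The calls on Hoxd10 and Hoxd11 depended on the filter. Without the filter on low counts, edgeR called both higher in db/db than in CT db (log2 fold changes 1.62 and 2.03 by edgeR, adjusted p = 0.000421 and 8.35e-06), beside 0.947% of 28505 genes. It also called Hoxc10, Hoxd10 and Hoxd11 lower in ob/ob than in CT ob (adjusted p = 0.00336, 0.00592 and 0.00517 by edgeR), beside 1.12% of 32006 genes. Between the mutants and in the interaction it called the same 3 genes, beside 1.54% and 0.947% of 34753 genes. DESeq2 on the same unfiltered genes called 0 Hox members in the db model, beside 0.130%, with adjusted p-values of 0.977 for Hoxd10 and Hoxd11. It also called 0 in the ob model, beside 0.203%, with adjusted p-values of 0.124 for Hoxd10 and 0.0711 for Hoxd11 and none given for Hoxc10. In the db model the edgeR calls did not hold without db/db-c, the library with most of the counts. The log2 fold changes then were -0.22 for Hoxd10 and -0.48 for Hoxd11 (adjusted p = 0.917 and 0.789, edgeR), and Hoxd8 was called lower in db/db instead, at -1.02 (adjusted p = 0.0305, edgeR). Without CT ob-b, Hoxd10 and Hoxd11 were likewise not called in the ob model (adjusted p = 0.596 and 0.567, edgeR), Hoxc10 was called at -5.59 (adjusted p = 0.00789, edgeR), and Hoxd8 and Hoxd9 were called at -1.52 and -1.84 (adjusted p = 0.0226 and 0.031, edgeR). The unfiltered calls across models were not refitted without those libraries.

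Non-coding genes of the clusters were mostly silent. Among 15 named RNAs, Hoxd3os1, which is antisense to Hoxd3 and Hoxd4 and overlaps 443 exon bases of Hoxd8, was above the floor in 13 libraries. It had 3, 10, 26 and 28 counts across db/db against 31, 67, 31 and 29 across CT db, and 33, 6 and 77 across ob/ob against 26, 15 and 30 across CT ob. The strand setting of the counting is not given in the sources used here, so reads of Hoxd3os1 and Hoxd8 in the shared bases cannot be told apart. Its log2 fold changes were -0.62 in the db model (adjusted p = 0.780, edgeR) and -0.23 in the ob model (adjusted p = 0.952, edgeR). Haglr, a long RNA of the anterior end of HoxD, had 0 to 7 counts. Hotair in HoxC, Hottip and Hotairm1 in HoxA, and the microRNA genes Mir10a, Mir196b and Mir196a-2 were at 0 in all libraries.

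The genes that border the clusters ranged from silent to abundant. Lnpk and Mtx2, on either side of HoxD, were at 25.5 to 77.5 CPM and 97.9 to 173.1 CPM in all libraries, while Evx2, a homeobox gene between Lnpk and Hoxd13, was at 0 or 1 count. Cbx5, beside HoxC, was at 251.1 to 436.3 CPM, and Hibadh, beside the silent HoxA, at 64.7 to 192.3 CPM. Calcoco2 beside HoxB was at 0, Ttll6 at 0 to 2 counts, Evx1 beside HoxA at 0 to 6 and Skap1 beside HoxB at 0 to 32. Of the 16 neighbours, 11 passed the filter. EdgeR called 0 of them in the db model, the ob model and the comparison of controls, beside 0.00884%, 0% and 6.63% of genes. Their log2 fold changes ran from -0.39 to 0.34 in the db model and from -0.71 to 0.29 in the ob model.

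Partners and regulators of Hox proteins were present in the GC libraries. Of 9 TALE homeodomain cofactors, which bind DNA together with Hox proteins, 7 passed the filter in the fit of all libraries and 0 were called in any comparison. Over all genes, edgeR called 0.00884% in the db model, 0% in the ob model and the interaction, 0.0159% between mutants and 6.63% between controls. Pknox1 was at 62.2 to 100.9 CPM and Pknox2 at 11.4 to 37.9 CPM, whereas Meis1, a frequent partner of posterior Hox proteins, was at 0.844 to 6.73 CPM. All 23 Polycomb and Trithorax genes of the list, which hold Hox clusters silent or active, passed the filter. Of these, 0 were called in any comparison, beside the same shares of all genes. The largest changes were those of Bmi1 (-0.76) in the db model and Pcgf2 (-0.84) in the ob model, and the list medians were 0.19 and 0.03, beside 0.01 and -0.04 over all genes. Among 15 genes of retinoic acid signalling and the Cdx factors, which switch on Hox genes in the embryo, 6 passed in the fit of all libraries. Rara, the retinoic acid receptor alpha, was the single call, higher across CT ob (38.9 ± 9.58 CPM, SD, n = 3) than across CT db (13.9 ± 5.02 CPM, SD, n = 4), with a log2 fold change of 1.49 (adjusted p = 0.0283, edgeR). This was between the controls, where 6.63% of all genes were called. Cdx1, Cdx2 and Cdx4 had at most 1 count and Rarb had 0. Of 14 transcription factors of the Mullerian and mesonephric ducts, Wt1 and Emx2 passed the filter, at 10.8 to 264.6 CPM and 7.14 to 15.9 CPM, and Pax2, Pax8 and Lhx1 had at most 3 counts. Wt1 averaged 52.1 ± 39.7 CPM across ob/ob (SD, n = 3) against 208.3 ± 82.0 CPM across CT ob (SD, n = 3), and its log2 fold change was -2.0 (adjusted p = 0.561, edgeR).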

How the data were processed

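GCs of antral follicles were collected from 12-week-old mice in 4 groups, and poly(A) RNA of pooled cells was amplified with a protocol that has no molecular identifiers. The deposited values are raw counts per gene, which the authors did not normalize. The study's methods give cutadapt, STAR, GRCm39 and featureCounts, whereas the submitters' processing notes name Trim Galore 0.6.2, HISAT2 2.1.0 and GRCm38. Which of these made the table, and its strand setting, were not settled, and 98.8% of the identifiers were found in a GRCm39 annotation (GENCODE). Columns were placed in groups by the study's list of datasets, and all 14 were used. The lengths used for CPM per kb are the merged exons of that annotation.

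TMM factors and quasi-likelihood tests were computed with edgeR 4.0.16 (R 4.3.3) on genes kept by filterByExpr (minimum count 10, minimum total 15). A gene was called where its p, adjusted by Benjamini-Hochberg over the genes tested, was at most 0.05. Each model was fitted separately, and comparisons across models used all 14 libraries together. DESeq2 1.42.0 was an alternative. CPM of single members was compared by two-sided exact permutation tests, which cannot go below 0.1 for 3 against 3 libraries or 0.0286 for 4 against 4 and 3 against 4. P-values measure the spread between these libraries, which may be technical, and limits from counts cover counting error only. All 39 members are accounted for. Those that passed the filter in a fit or had more than 3 counts in at least 3 libraries were described in every library. Neighbours were the 2 nearest protein-coding genes on each side. Members, lists and tests were chosen with earlier results of these data known.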

Additional observations from a re-analysis of the deposited data

Results flagged for a closer look

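In groups of 4 libraries, 1 library lay far from the other 3 for 4 values among 26 combinations of member and group tested. The rule is set to flag about 1 in 20 by chance for normal values. That rate does not hold for low counts with many zeros, where a member counted in a single library is always flagged. The combinations are also not independent, since members such as Hoxd10 and Hoxd11 vary together. Hoxc10 in CT db was at 4.40 CPM in CT db-c and at 0 in the other 3 libraries. Hoxd10 in CT db was at 22.0 CPM in CT db-c against 0 to 0.426 CPM. Hoxd11 in CT db was at 16.2 CPM in CT db-c against 0 to 0.213 CPM, and in db/db it was at 60.2 CPM in db/db-c against 0 to 7.81 CPM. The 3 values of CT db come from the same library.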

How the results depend on the processing

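No paired analysis was possible because the columns carry none of the replicate numbers of the labels. Called counts of members stayed at 0 in all 5 comparisons with DESeq2, RLE or upper quartile factors, library size only, downsampling, each library left out, and both db/db-a and CT ob-b left out, the last chosen after seeing the data. In the interaction DESeq2 gave no adjusted p for any member, so its 0 there was fixed in advance. Without the filter on low counts edgeR called 2 members in the db model, 3 in the ob model, 3 between the mutants and 3 in the interaction. With db/db-c also left out it called 1 in the db model, and with CT ob-b also left out 3 in the ob model, both chosen after seeing the data. Without the filter, the log2 values of Hoxc10, Hoxd10 and Hoxd11 were -4.29, -4.62 and -6.25 between the mutants and -5.71, -4.72 and -6.13 in the interaction. With any count above 0 taken as detection, 31 members were detected in at least 1 library and 6 in every library, in place of 15 and 1. The number above 3 counts in every library ran from 1 to 3 when each library was left out. Directions of single members changed as follows. The Hoxb9 interaction, at -0.01, became 0.01 with DESeq2, 0.01 with RLE factors, 0.07 without the filter and 0.02 with DESeq2 without the filter. Hoxd8 between controls, at 0.04, became -0.06 without the filter and -0.13 with library size only, where its difference of mean CPM turned from 1.17 to -2.15. Hoxc4 between mutants, at -0.34, became 0.20 after downsampling. Without db/db-a and CT ob-b, Hoxd10 between controls became -0.88, and between mutants Hoxc5 became -0.03 and Hoxc8 2.8e-03. Log2 fold changes that changed direction when a library was left out had these ranges: in the controls Hoxb7 (-1.19 to 1.20), Hoxb9 (-0.48 to 0.07), Hoxc5 (-0.30 to 0.11), Hoxd10 (-0.88 to 4.95), Hoxd11 (-1.13 to 5.07), Hoxd8 (-1.60 to 0.53) and Hoxd9 (-0.77 to 1.12); in the interaction Hoxb7 (-1.79 to 0.61), Hoxb9 (-0.37 to 0.39), Hoxc5 (-0.41 to 0.85), Hoxd8 (-1.09 to 1.05) and Hoxd9 (-2.61 to 0.19); in the ob model Hoxb7 (-1.75 to 0.54), Hoxb9 (-0.07 to 0.57) and Hoxd8 (-1.65 to 0.49); in the mutants Hoxb9 (-0.54 to 0.22), Hoxc4 (-1.53 to 0.21), Hoxc5 (-0.52 to 0.74), Hoxc8 (-0.70 to 0.28) and Hoxd9 (-1.99 to 0.08); in the db model Hoxc8 (-0.80 to 0.01) and Hoxd9 (-0.93 to 0.02). The cause was not tested. Shallow libraries and counts of 0 to 20 limit what can be detected for most members.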

Other observations

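The genes whose pattern over the 14 libraries was most like that of Hoxd10 were looked up among 13192 genes with at least 10 counts in at least 3 libraries, a rule chosen after the values were seen. By Spearman rho of CPM the nearest was Hoxd11 (0.92), followed by Cdca3 (0.82), Tmem104 (0.81), Gm16973 (0.81), Tchp (0.78) and Hoxc10 (0.77). Hoxc9 was at rank 20 with 0.70 and Hoxc4 at rank 32 with 0.68. The other members lay far down, with Hoxd9 at rank 862 (0.38) and Hoxd8 at rank 3708 (0.15). All of these share the 14 libraries and their scaling, and no test was made.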
